A study of Mus musculus with 8 samples.

Results

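The genes described here are 10 brakes and switches of the cell cycle: the cyclin-dependent kinase (CDK) inhibitors *Cdkn1a*, *Cdkn1b*, *Cdkn2c* and *Cdkn2d*, the retinoblastoma (RB) family genes *Rb1*, *Rbl1* and *Rbl2*, and the E2F transcription factor genes *E2f1*, *E2f2* and *E2f8*. They were selected by gene symbol from a named list, drawn up with earlier results of these data known. All 10 were found among the 20172 genes of the table, and all 10 were among the 13990 genes with a mean of at least 10 normalized counts that entered the test. The libraries were RNA sequencing libraries of regulatory T cells (Tregs) sorted from the spleens of female *Foxp3* CreYFP mice, 4 from TNFR2+ Tregs and 4 from TNFR2- Tregs. TNFR2 is a receptor for the cytokine TNF, and the question was how the Tregs that carry it differ from those that do not. Both groups had the same genotype, in which the *Foxp3* locus drives YFP and Cre, so Tregs were taken as YFP+ cells. No age and no treatment were given in the labels, which also did not say whether the 4 replicates came from separate mice. The p-values therefore measure only the spread between these libraries.

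Progress from G1 into S phase is driven by cyclin-dependent kinases that phosphorylate the RB family proteins and so release E2F factors. CIP/KIP inhibitors (p21 and p27) bind cyclin-CDK complexes of several phases, whereas INK4 inhibitors (p18 and p19) bind CDK4 and CDK6. In resting T cells p27 is abundant and the RB family member p130, with E2F4 and the MuvB complex, keeps cell cycle genes silent, whereas E2F8 is an atypical repressor that is itself made when E2F factors are active.

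The values summed to between 9576920 and 11492762 normalized counts per library, from an estimated 9100000 to 12110000 reads, and TNFR2- replicate 3 stood apart on the second principal component (-91.3, against -18.0 to 39.1 in the other 7 libraries). *Tnfrsf1b*, which encodes TNFR2, was higher in TNFR2+ Tregs (log2 fold change 0.90, limma adjusted p = 0.00449), and all 6 Treg markers were found in every library. Their summed level was 25684 to 29549 in TNFR2+ and 19555 to 23702 in TNFR2- libraries, but the 6 did not move together. *Ctla4* (log2 fold change 0.89, adjusted p = 0.00120), *Ikzf2* (0.95, 0.0145) and *Cd3e* (0.51, 0.00919) were higher in TNFR2+ Tregs, whereas *Foxp3* (-0.23, 0.232), *Il2ra* (-0.34, 0.0860) and *Cd4* (0.28, 0.192) did not pass the test. Of the markers of other cells, 7 of 8 B cell, 6 of 10 myeloid, 5 of 8 CD8 and NK and 1 of 7 erythroid genes were in the table. Of these 9 were tested, and 0 passed limma in either direction (1 B cell gene was higher at an unadjusted p under 0.05). Their summed levels in TNFR2+ and TNFR2- libraries were 411 to 521 and 206 to 479 for B cells, 40.9 to 79.4 and 60.5 to 134 for myeloid cells, 88.7 to 119.5 and 91.3 to 152 for CD8 and NK cells, and 0 to 12.1 and 0 to 10.6 for erythroid cells. *Cd79a*, *Pax5*, *Blk*, *Csf1r*, *Fcgr3*, *S100a9*, *Flt3*, *Cd8a*, *Klrb1c* and *Alas2* were at 0 in at least 1 library.

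Of the 10 genes, 2 passed the test (adjusted p under 0.05), against 7.91% of all genes tested. Both, *Cdkn1b* and *Rb1*, were lower in TNFR2+ Tregs, where 3.39% of all genes passed in that direction. None of the 10 passed in the higher direction, where 4.52% of all genes did. At an unadjusted p under 0.05, limma gave 2 higher genes (*Cdkn2c* and *E2f8*) and 3 lower genes (*Cdkn1b*, *Rb1* and *Cdkn2d*). The libraries of the 2 populations did not overlap for 3 of the 10 genes (*Cdkn1b*, *Rb1* and *E2f8*), against 15.4% of all genes tested. The median log2 fold change of the 10 genes was 0.15, and that of all genes was -0.01. In bulk RNA, a smaller share of cells that express a gene and less RNA per cell cannot be told apart.

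**Figure D1:**
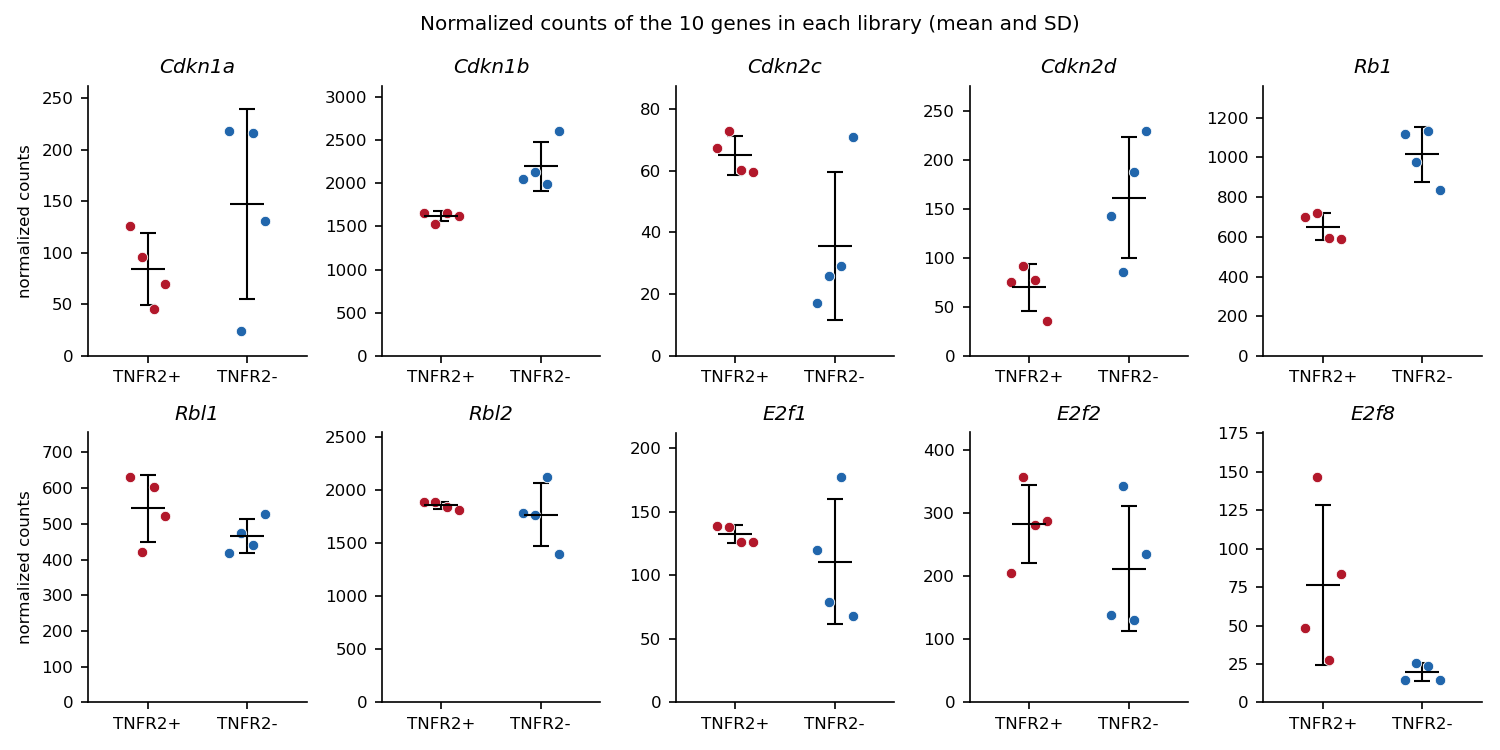
Normalized counts (y axis, from 0) of the 10 genes in each library, with points for the 4 TNFR2+ and 4 TNFR2- libraries, a dash for their mean and bars for the SD. The points of the 2 populations are separate for *Cdkn1b*, *Rb1* and *E2f8* and overlap for the other 7 genes.

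Among the CIP/KIP inhibitors, *Cdkn1b* (p27, Ensembl ENSMUSG00000003031, GRCm38 chr6:134920401-134925513, plus strand) was lower in TNFR2+ Tregs. The normalized counts were 1655, 1532, 1659 and 1625 in TNFR2+ replicates 1 to 4, and 2051, 2131, 1994 and 2606 in TNFR2- replicates 1 to 4. Every TNFR2+ library lay below every TNFR2- library, and the TNFR2+ libraries lay close together, with a coefficient of variation of 3.65%, against 12.7% in TNFR2- libraries. The mean was 1618 ± 59.1 (SD, n = 4) in TNFR2+ and 2196 ± 279 (SD, n = 4) in TNFR2- Tregs. This gave a log2 fold change of -0.43 ± 0.12 (SE, 95% confidence interval -0.69 to -0.17, limma adjusted p = 0.0443). The level was thus 1.35-fold higher in TNFR2- Tregs, and an exact two-sided permutation test of this gene alone gave p = 0.0286, the smallest value that 4 against 4 libraries allow. The adjusted p was close to the threshold. It was under 0.05 in 5 of the 11 fits with all libraries, the one reported here among them (0.0340 to 0.149). Of the 8 fits that each left out 1 library, the adjusted p was under 0.05 in only 1, that without TNFR2- replicate 3 (0.0359). It was 0.0871, 0.125, 0.0879 and 0.0827 without TNFR2+ replicates 1, 2, 3 and 4, and 0.0663, 0.0887 and 0.0961 without TNFR2- replicates 1, 2 and 4, while the log2 fold change stayed between -0.48 and -0.35.

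*Cdkn1a* (p21, a target of p53; ENSMUSG00000023067, chr17:29090976-29100727, plus strand) had the largest coefficient of variation of the 4 CDK inhibitors in TNFR2+ Tregs (41.2%), and 1 further annotated gene that was not in the table used here overlaps it. Its normalized counts were 126, 96.1, 45.1 and 69.9 in TNFR2+ replicates 1 to 4, and 218, 23.9, 217 and 131 in TNFR2- replicates 1 to 4. The populations overlapped, since 1 TNFR2- library was the lowest of all 8 and the other 3 TNFR2- libraries were the highest. A log2 fold change of -0.49 ± 0.61 was fitted (SE, 95% confidence interval -1.80 to 0.82, adjusted p = 0.685), so the spread between libraries allowed a change in either direction. Without TNFR2- replicate 2 the log2 fold change was -1.21, and without TNFR2- replicate 1 it was -0.17, and neither fit passed the threshold (adjusted p = 0.101 and 0.914).

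The INK4 inhibitors differed from each other in direction. *Cdkn2c* (p18, ENSMUSG00000028551, chr4:109660876-109667189, minus strand) had normalized counts of 67.2, 72.8, 60.3 and 59.6 in TNFR2+ replicates 1 to 4, and 17.1, 25.9, 29.0 and 70.9 in TNFR2- replicates 1 to 4. The first 3 TNFR2- libraries lay below every TNFR2+ library, and TNFR2- replicate 4 lay among the TNFR2+ libraries. The mean was 65.0 ± 6.25 (SD, n = 4) in TNFR2+ and 35.7 ± 24.0 (SD, n = 4) in TNFR2- Tregs, and the log2 fold change of 1.04 ± 0.46 (SE) did not pass the threshold (95% confidence interval 0.04 to 2.04, adjusted p = 0.199). Without TNFR2- replicate 4 it was 1.43 with an adjusted p of 0.0741.

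*Cdkn2d* (p19, ENSMUSG00000096472, chr9:21288410-21291407, minus strand) had normalized counts of 75.3, 91.4, 77.5 and 35.8 in TNFR2+ replicates 1 to 4, and 143, 85.5, 188 and 230 in TNFR2- replicates 1 to 4. Only TNFR2+ replicate 2 and TNFR2- replicate 2 crossed, and the other 3 TNFR2+ libraries lay below every TNFR2- library. *Cdkn2d* had a fitted log2 fold change of -1.18 ± 0.39 (SE, 95% confidence interval -2.02 to -0.35, adjusted p = 0.0826), from means of 70.03 ± 23.9 and 162 ± 61.9 (SD, n = 4 each). It passed the threshold without TNFR2- replicate 2 (-1.46, adjusted p = 0.0479) and in none of the other 7 fits that left out 1 library.

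The ratio of *Cdkn2c* to *Cdkn2d* compares both INK4 genes within each library. Its log2 value was -0.16, -0.32, -0.36 and 0.72 in TNFR2+ replicates 1 to 4, and -2.99, -1.69, -2.66 and -1.68 in TNFR2- replicates 1 to 4. The ratio was thus higher in every TNFR2+ library than in any TNFR2- library. The difference of 2.22 on the log2 scale gave the smallest p that an exact permutation test allows (0.0286), and p = 0.0857 after Benjamini-Hochberg adjustment over the 6 pairs compared. An adjusted p under 0.05 would have needed most of the 6 pairs to reach that smallest p, so the adjusted value says little about this pair. The ratio of *Cdkn1a* to *Cdkn1b* differed by -0.06 (exact permutation p = 0.914, also after adjustment), with a wider spread in TNFR2- libraries (SD 1.51) than in TNFR2+ libraries (SD 0.65).

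Among the RB family genes, *Rb1* (pRB, ENSMUSG00000022105, chr14:73183673-73325822, minus strand) was lower in TNFR2+ Tregs. It had 701, 720.5, 594 and 590.3 normalized counts in TNFR2+ replicates 1 to 4, and 1117, 976, 1133 and 835 in TNFR2- replicates 1 to 4. No TNFR2+ library reached the lowest TNFR2- library. The means were 651 ± 69.1 and 1015 ± 139 (SD, n = 4 each), a log2 fold change of -0.63 ± 0.15 (SE, 95% confidence interval -0.96 to -0.30, adjusted p = 0.0219), or 1.55-fold higher in TNFR2- Tregs. The exact permutation test gave p = 0.0286. Of the 11 fits with all libraries, 10 passed the threshold, and the fit with no intensity trend did not (adjusted p = 0.0842). The call was lost without TNFR2- replicate 1 (0.0650), TNFR2- replicate 2 (0.0522), TNFR2+ replicate 3 (0.0687) or TNFR2+ replicate 4 (0.0581). It held without each of the other 4 libraries, and the log2 fold change stayed between -0.73 and -0.58.

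Other annotated genes overlap *Rb1*, and the strand setting of the counting is not given in the sources used here, so reads of overlapping exons could have been split between them. *Rcbtb2*, on the opposite strand, had 63.5 to 149 normalized counts in TNFR2+ and 143 to 262 in TNFR2- libraries. *Lpar6*, also on the opposite strand, had 63.1 to 94.3 and 56.5 to 138. *Gm17233*, on the same strand, had 2.84 to 14.3 and 14.0 to 46.4. Each of these levels lay under the lowest *Rb1* value of the same population, and their part in the *Rb1* value was not tested.

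*Rbl1* (p107, ENSMUSG00000027641, chr2:157145893-157204534, minus strand), the RB family member that rises in cycling cells, had 629.9, 421, 604 and 522 normalized counts in TNFR2+ replicates 1 to 4, and 418, 475, 442 and 527 in TNFR2- replicates 1 to 4. TNFR2+ replicates 1 and 3 lay above every TNFR2- library, and the other 2 lay within the TNFR2- range. The log2 fold change was 0.21 ± 0.18 (SE, 95% confidence interval -0.17 to 0.59, adjusted p = 0.518).

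*Rbl2* (p130, the RB family member of resting cells; ENSMUSG00000031666, chr8:91070057-91123844, plus strand) had 1885, 1889, 1845 and 1811 normalized counts in TNFR2+ replicates 1 to 4, and 1788, 1770.5, 2121 and 1395 in TNFR2- replicates 1 to 4. The 4 TNFR2+ values lay within the range of the TNFR2- values, with coefficients of variation of 1.98% and 16.8%. The log2 fold change was 0.09 ± 0.13 (SE, 95% confidence interval -0.20 to 0.38, adjusted p = 0.756), and it was -0.02 without TNFR2- replicate 4. *Aktip*, which overlaps *Rbl2* on the opposite strand, had 42.5 to 111 and 13.8 to 78.9 normalized counts in the 2 populations.

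The ratio of *Rb1* to *Rbl2* was lower in every TNFR2+ library than in every TNFR2- library. Its log2 value was -1.52 ± 0.13 (SD, n = 4) in TNFR2+ and -0.80 ± 0.10 (SD, n = 4) in TNFR2- Tregs. The difference was -0.72 (exact permutation p = 0.0286, adjusted over the 6 pairs 0.0857, with the limit of the adjustment given above for *Cdkn2c* and *Cdkn2d*). The ratio of *Rbl1* to *Rbl2* differed by 0.13, less than the SD within either population (exact permutation p = 0.6, adjusted 0.9). As a share of the summed RB family level per kilobase of transcript, *Rb1* took 22.2% ± 1.96 in TNFR2+ and 32.4% ± 1.65 in TNFR2- Tregs (SD, n = 4 each). The share of *Rbl2* was 60.0% ± 1.66 and 53.1% ± 2.78, and that of *Rbl1* 17.8% ± 2.75 and 14.5% ± 3.22. The populations did not overlap in the shares of *Rb1* and *Rbl2* and overlapped in that of *Rbl1*. These shares depend on each other, so a lower *Rb1* level by itself raises the share of *Rbl2*. The *Rbl2* counts themselves overlapped between the populations, so its share and the ratio of *Rb1* to *Rbl2* are no separate result about *Rbl2*.

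**Figure D2:**
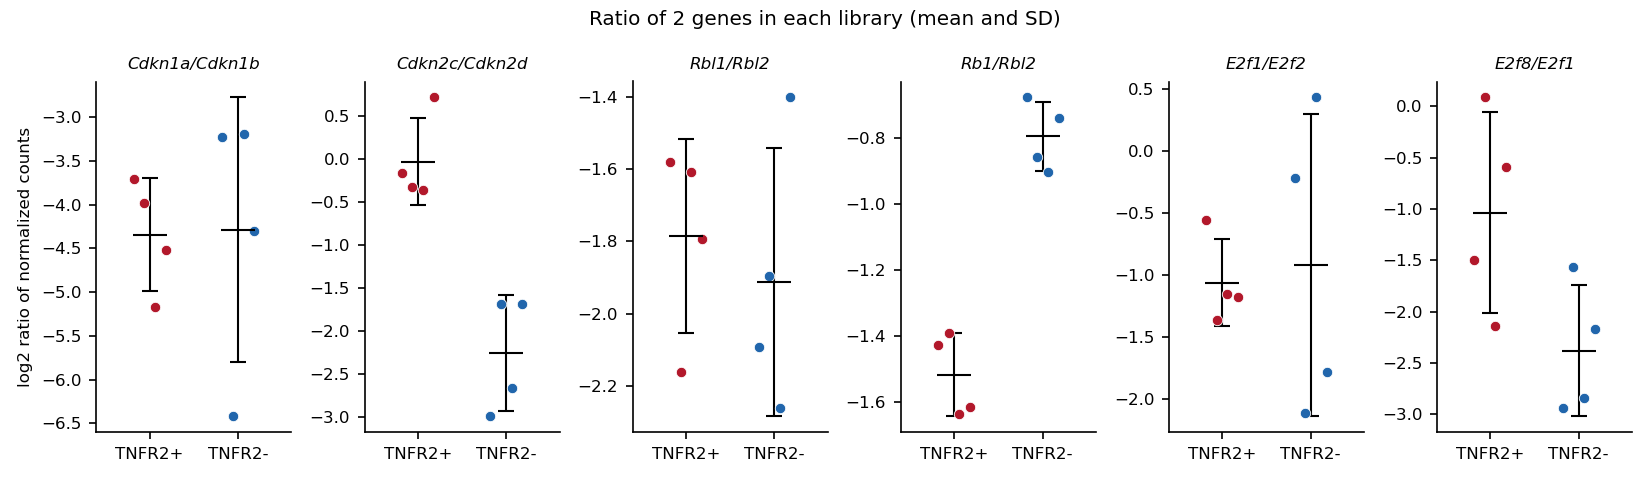
Log2 ratio of 2 genes in each library (y axis) for the 6 pairs compared, with points for TNFR2+ and TNFR2- libraries, a dash for their mean and bars for the SD. The populations are separate for *Cdkn2c* to *Cdkn2d* and for *Rb1* to *Rbl2*, whose differences of 2.22 and -0.72 have the smallest exact p, and overlap in the other 4 pairs.

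The 3 E2F genes had positive log2 fold changes, and none passed the threshold (limma, unadjusted p under 0.05 for *E2f8* alone). *E2f8* (ENSMUSG00000046179, chr7:48866429-48881596, minus strand) had 48.5, 146, 27.8 and 83.3 normalized counts in TNFR2+ replicates 1 to 4, and 14.7, 25.8, 23.8 and 14.4 in TNFR2- replicates 1 to 4. All 4 TNFR2+ values were above the highest TNFR2- value, but the TNFR2+ libraries were themselves widely spread, with replicate 3 just above the highest TNFR2- library and replicate 2 far above the others. The log2 fold change was 1.70 ± 0.55 (SE, 95% confidence interval 0.51 to 2.88), or 3.24-fold, with an adjusted p of 0.0791 and an exact permutation p of 0.0286. It passed only without TNFR2+ replicate 3 (2.09, adjusted p = 0.0436), and without TNFR2+ replicate 2 it was 1.302 (adjusted p = 0.247). *Gm2788*, which overlaps *E2f8* on the opposite strand, had 0 to 9.37 normalized counts in TNFR2+ libraries and 0 in all TNFR2- libraries.

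*E2f1* (an activator E2F; ENSMUSG00000027490, chr2:154559407-154569892, minus strand) had 139, 138, 126 and 126 normalized counts in TNFR2+ replicates 1 to 4, and 119, 78.5, 177 and 67.9 in TNFR2- replicates 1 to 4. The TNFR2+ libraries lay between the second highest and the highest TNFR2- library, with coefficients of variation of 5.38% and 44.6%. Its fold change on the log2 scale was 0.35 ± 0.32 (SE, 95% confidence interval -0.34 to 1.05, adjusted p = 0.562). A near-identical copy of *E2f1* transcript sequence is annotated as *Gm17571*, which was not in the table used here, so the level of *E2f1* is uncertain to that extent. The same applies to *E2f8* and *Gm22824*.

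*E2f2*, the other activator (ENSMUSG00000018983, chr4:136172394-136196057, plus strand), had 205, 357, 281 and 288 normalized counts in TNFR2+ replicates 1 to 4, and 139, 343, 131 and 236 in TNFR2- replicates 1 to 4. Replicate 2 was the highest of each population, and the populations overlapped. Its fold change on the log2 scale was 0.50 ± 0.31 (SE, 95% confidence interval -0.17 to 1.17, adjusted p = 0.370). The ratio of *E2f1* to *E2f2* differed by -0.14 (exact permutation p = 0.8, adjusted 0.914). The ratio of *E2f8* to *E2f1* differed by 1.34, with overlapping populations (exact permutation p = 0.0571, adjusted 0.114).

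**Figure D3:**
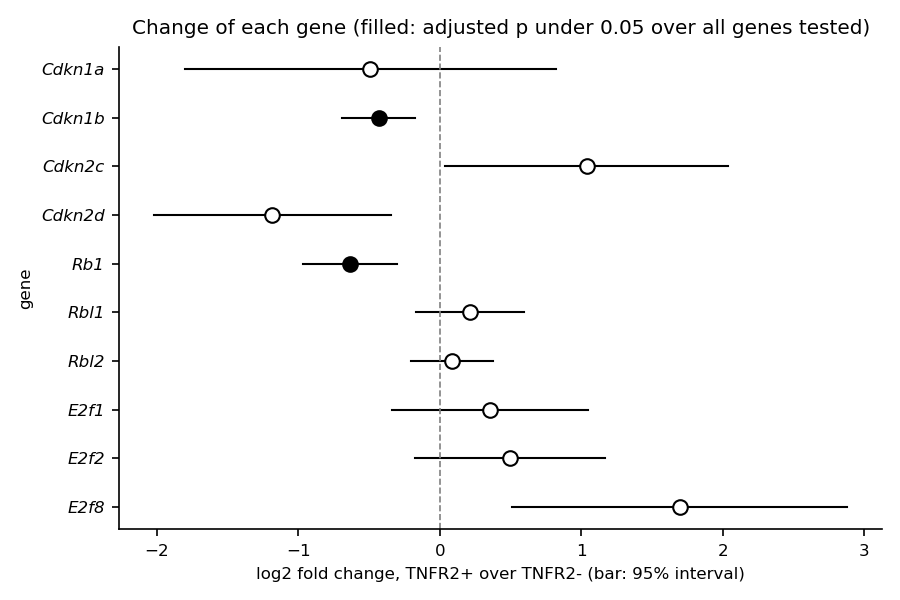
Log2 fold change of TNFR2+ over TNFR2- Tregs (x axis) for the 10 genes, with points for the fitted value (filled where the adjusted p was under 0.05) and bars for the 95% confidence interval. The intervals of *Cdkn1b*, *Rb1*, *Cdkn2d*, *Cdkn2c* and *E2f8* do not cross 0, and after adjustment over all genes *Cdkn1b* and *Rb1* passed the threshold.

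Levels of different genes were compared per kilobase of the longest protein-coding transcript, as normalized counts per kilobase. In TNFR2+ Tregs *Rbl2* had the highest level (377 ± 7.48, SD, n = 4), followed by *Cdkn1b* (355 ± 13.0), *Rb1* (139.9 ± 14.8) and *Rbl1* (112 ± 19.3). Then came *E2f2* (59.6 ± 13.1), *Cdkn2d* (49.2 ± 16.8), *E2f1* (48.0 ± 2.58), *Cdkn1a* (40.5 ± 16.7), *Cdkn2c* (26.3 ± 2.53) and *E2f8* (20.7 ± 14.1). Neighbours in this order were separate in all libraries for *Rbl2* and *Cdkn1b*, *Cdkn1b* and *Rb1*, and *Rbl1* and *E2f2*, and overlapped elsewhere. In TNFR2- Tregs *Cdkn1b* had the highest level (482 ± 61.4), ahead of *Rbl2* (359 ± 60.2), *Rb1* (218 ± 29.9) and *Cdkn2d* (114 ± 43.5), and these 4 did not overlap from one to the next. *Rbl1* (95.8 ± 9.71), *Cdkn1a* (70.9 ± 44.2), *E2f2* (44.8 ± 20.9), *E2f1* (40.2 ± 17.9), *Cdkn2c* (14.4 ± 9.71) and *E2f8* (5.33 ± 1.63) followed, each overlapping its neighbour. With the total exonic length as the divisor, *Cdkn1b* (355) stood above *Rbl2* (246) in TNFR2+ Tregs as well, so the order of these 2 genes there depends on the length used. So does the place of *Cdkn1a*, which then fell behind *Cdkn2c* in TNFR2+ Tregs (23.7 and 24.2) and behind *E2f2* in TNFR2- Tregs (41.5 and 43.5).

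Within the CDK inhibitors, *Cdkn1b* took most of the summed level per kilobase in both populations (75.6% ± 5.01 in TNFR2+ and 71.6% ± 9.31 in TNFR2-, SD, n = 4 each). *Cdkn2c* took 5.58% ± 0.416 and 2.03% ± 1.03, with no overlap between populations, and *Cdkn2d* took 10.4% ± 3.32 and 16.2% ± 4.07, with overlap. Among the 3 E2F genes, *E2f8* took 15.1% ± 7.39 in TNFR2+ and 5.80% ± 0.848 in TNFR2- Tregs, with no overlap, while the shares of *E2f1* (38.4% ± 7.21 and 44.9% ± 18.9) and *E2f2* (46.5% ± 5.03 and 49.3% ± 19.1) overlapped. These shares are descriptions without a test, and the shares within a family depend on each other.

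**Figure D4:**
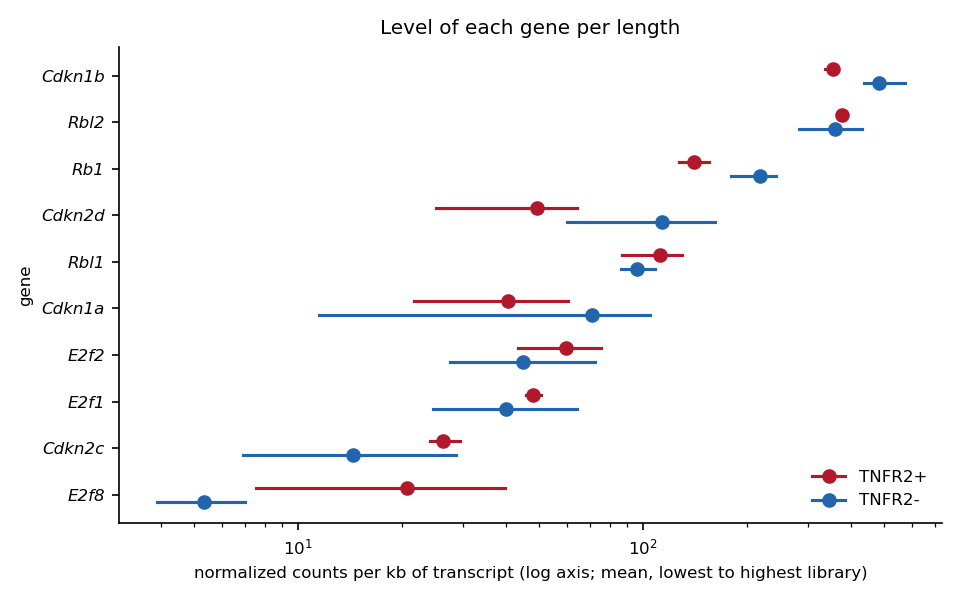
Normalized counts per kilobase of the longest protein-coding transcript (log axis) for the 10 genes, with points for the mean of each population and lines from its lowest to its highest library. *Rbl2*, *Cdkn1b* and *Rb1* hold the 3 highest means in both populations, and *E2f8* the lowest.

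RefSeq promoter windows of GRCm38.p6, running from 250 bases before to 50 after an annotated start, were found for 9 of the 10 genes, in 12 windows, and not for *Rb1*. They were searched on both strands for the E2F letters TTTCCCGC, TTTGGCGC, TTTGCCGC and TTTCGCGC, some of which can share bases with the GC box. The E2F letters were present in 2 of the 12 windows (*Rbl1* and *E2f2*), against 2.26% of all 32851 windows. The letters TTTGAA, which resemble the CHR element bound by MuvB, were present in 3 of the 12 (*Rbl2*, the second window of *E2f2*, and *E2f8*), against 17.9% of windows. The forkhead letters GTAAACA were in 0 of the 12, against 3.65% of windows, and the GC box GGGCGG was in 9 of the 12, against 35.7%. A match here is a description of letters and not of a bound site. The bases before the start lie, by more than a few bases, inside the gene as annotated by GENCODE for *E2f1*, *Cdkn2d*, both windows of *Cdkn2c* and the second windows of *Cdkn1a* and *E2f2*. The last 120 bases before the start are shown for *Cdkn1b*, which passed the test, for *Rbl1*, which holds E2F letters at position -18, and for *E2f8*, which holds the CHR-like letters on the other strand at position -20. Capitals mark these letters and, for *Cdkn1b*, a GC box. The stretches are chr6:134920281-134920400 (plus strand), chr2:157204535-157204654 (minus strand) and chr7:48881597-48881716 (minus strand).
Cdkn1b: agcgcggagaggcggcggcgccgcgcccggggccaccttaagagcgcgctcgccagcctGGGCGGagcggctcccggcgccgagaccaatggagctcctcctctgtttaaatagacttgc
Rbl1: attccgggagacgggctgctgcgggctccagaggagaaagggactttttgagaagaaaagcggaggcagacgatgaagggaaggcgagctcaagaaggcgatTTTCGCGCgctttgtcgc
E2f8: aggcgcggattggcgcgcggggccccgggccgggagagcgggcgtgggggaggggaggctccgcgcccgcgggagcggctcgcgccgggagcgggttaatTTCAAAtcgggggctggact

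The genes whose pattern over the 8 libraries was most like that of *Cdkn1b* were *Galnt6* (Pearson r = 0.985, log2 fold change -0.74, adjusted p = 0.00485) and *Ccm2* (r = 0.981, -0.42, adjusted p = 0.0604). For *Rb1* they were *Gys1* (r = 0.976, -0.63, adjusted p = 0.136) and *Enpp1* (r = 0.961, -0.65, adjusted p = 0.0962). The 8 points fall into 2 populations and share libraries, so these values mostly read the difference between populations and are given without a p.

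The other genes of the pathway were taken from lists of named genes. Over all 13990 genes tested, 633 (4.52%) passed limma as higher and 474 (3.39%) as lower. At an unadjusted p under 0.05 these counts were 1716 and 1495. Among the other E2F and DP genes, all 7 were tested and had positive log2 fold changes, with a median of 0.39, and 1 passed as higher, *Tfdp1*, which encodes the DP1 partner of E2F factors (413 ± 67.6 against 208 ± 58.5 normalized counts, log2 fold change 1.02, adjusted p = 0.0178). That call was lost without TNFR2+ replicate 2 (0.92, adjusted p = 0.0688) and, with all libraries, with no intensity trend (adjusted p = 0.0644). *E2f7*, the other atypical E2F, had 139 ± 67.6 and 47.3 ± 25.6 normalized counts (log2 fold change 1.61, adjusted p = 0.0872), and *Tfdp2* had a value of 0.39 on the same scale (adjusted p = 0.239). Among the other CDK inhibitors, 1 of 4 was tested, *Cdkn1c* (p57), with 11.46 ± 5.64 and 25.9 ± 22.1 normalized counts (-0.95, adjusted p = 0.491). None of the 7 genes of the MuvB core and its partners passed the limma test (median -0.03, and at an unadjusted p under 0.05 there were 0 higher and 1 lower). Of these, *Lin52* had -0.90 (adjusted p = 0.212), *Lin54* 0.32 (0.270) and *Mybl2* -0.23 (0.786).

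Of the G1 cyclins and their kinases, 8 of 9 were tested, and 1 passed, *Cdk6*, a kinase that INK4 proteins bind. It had 1564 ± 599.9 normalized counts in TNFR2+ and 848 ± 111 in TNFR2- Tregs (log2 fold change 0.82, adjusted p = 0.0419). The call held in 1 of the 8 fits that left out a library, that without TNFR2+ replicate 4 (adjusted p = 0.0125), and the adjusted p reached 0.103 without TNFR2+ replicate 1. With all libraries it was lost in 3 of the 11 fits, those with array weights (0.0517), the replicate block (0.0589) and no intensity trend (0.150). *Ccnd3*, a cyclin D that partners CDK6 in lymphocytes, had 1140 ± 124 and 1562 ± 179 (-0.45, adjusted p = 0.0590), and *Ccne2*, a cyclin of the G1 to S step, had 61.5 ± 40.6 and 14.3 ± 17.1 (2.34, adjusted p = 0.0694). Both passed without TNFR2- replicate 4, *Ccnd3* at -0.52 (adjusted p = 0.0451) and *Ccne2* at 2.99 (adjusted p = 0.0214). *Ccnd2*, another cyclin D, had 2116 ± 371 and 1687 ± 212 normalized counts (0.32, adjusted p = 0.208). *Cdk4*, also bound by INK4 proteins, had 375 ± 110 and 206 ± 55.6 (0.84, adjusted p = 0.0850). *Cdk2* had the largest fall of the list, with 135 ± 61.2 and 199 ± 41.0 (-0.63, adjusted p = 0.261). *Ccne1* had 28.4 ± 12.5 and 30.0 ± 26.0 (0.25, adjusted p = 0.875), and *Cdc25a* 174 ± 64.8 and 134 ± 57.8 (0.44, adjusted p = 0.581). *Ccnd2*, *Cdk4*, *Cdk2*, *Ccne1* and *Cdc25a* were named after their values were seen.

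Of the 44 E2F target genes, all tested, 13 passed as higher in TNFR2+ Tregs and 0 as lower by limma (24 and 0 before adjustment), and their median log2 fold change was 0.72. Of all genes tested, 4.52% passed as higher and 3.39% as lower. *Mcm6*, a subunit of the replicative helicase, had 2062 ± 234 and 737 ± 191 normalized counts (log2 fold change 1.51, adjusted p = 4.94e-04). *Uhrf1*, which maintains DNA methylation at replication, had 566 ± 104 and 84.5 ± 45.9 (2.89, adjusted p = 4.98e-04), and *Chaf1a*, a histone chaperone subunit, had 246 ± 62.7 and 52.3 ± 14.8 (2.22, adjusted p = 9.80e-04). The count of higher genes fell to 7 without TNFR2+ replicate 2. Of the 35 listed targets with a promoter window, 18 held the E2F letters. *Mki67*, a proliferation marker, moved with this list, with 4120.3, 5041, 3553 and 2622 normalized counts in TNFR2+ replicates 1 to 4 and 837, 361, 814 and 295 in TNFR2- replicates 1 to 4. The part that a larger share of cycling cells has in the E2F target and *E2f8* values was not tested.

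Of the quiescence genes, all 16 were tested, and 7 passed as lower and 0 as higher by limma (10 and 1 at an unadjusted p under 0.05), with a median of -0.49. The shares over all genes tested were 3.39% lower and 4.52% higher. With no intensity trend 3 passed as lower. *Klf2*, which maintains T cell quiescence and trafficking, had 2783 ± 583 and 10138 ± 2969 normalized counts (log2 fold change -1.85, adjusted p = 2.44e-04). *Txnip*, an inhibitor of thioredoxin, fell by 1.25 on the log2 scale (adjusted p = 3.52e-04), and *Bcl2*, a survival factor, fell by 1.03 (adjusted p = 0.00191).

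Of the 11 genes of p27 turnover and FOXO factors, 1 passed, *Foxo3*, a forkhead factor known to activate *Cdkn1b*, which had 1236 ± 260.2 and 1944 ± 278 normalized counts (-0.67, adjusted p = 0.0245). Its call was lost in 5 of the 8 fits that left out a library, without TNFR2+ replicates 1, 2 and 3 (adjusted p = 0.0687, 0.0814 and 0.0525) and without TNFR2- replicates 1 and 2 (0.0548 and 0.0832). With all libraries, the call of *Foxo3* was lost with no intensity trend (adjusted p = 0.117). *Cks1b*, a cofactor of p27 degradation, had 42.8 ± 22.6 and 10.96 ± 15.4 normalized counts (2.78, adjusted p = 0.0976, and 0.0317 without TNFR2- replicate 1), and *Uhmk1*, a kinase of p27, had 0.33 (adjusted p = 0.144).

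Of the 19 p53 target genes, 17 were tested, 3 passed as higher and 1 as lower (against 4.52% and 3.39% of all genes tested), and the median was -0.04. *Pmaip1* (1.149, adjusted p = 0.00411) and *Ccng1* (0.63, adjusted p = 0.0156) were higher, as was *Trp53inp1* (0.95, adjusted p = 0.0342), which is named because it completes the count of 3 after its value was seen. *Btg2*, which restrains proliferation, was lower (-0.54, adjusted p = 0.0129). Without TNFR2+ replicate 2 the calls were 1 higher and 0 lower (*Ccng1* 0.0605, *Trp53inp1* 0.0527 and *Btg2* 0.0533). With all libraries and no intensity trend they were also 1 higher and 0 lower (*Ccng1* 0.0504, *Trp53inp1* 0.148 and *Btg2* 0.0872). *Trp53inp1* passed without TNFR2+ replicate 4 or TNFR2- replicate 3 and in none of the other 6 such fits (adjusted p 0.00295 to 0.107 over the 8).

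**Figure D5:**
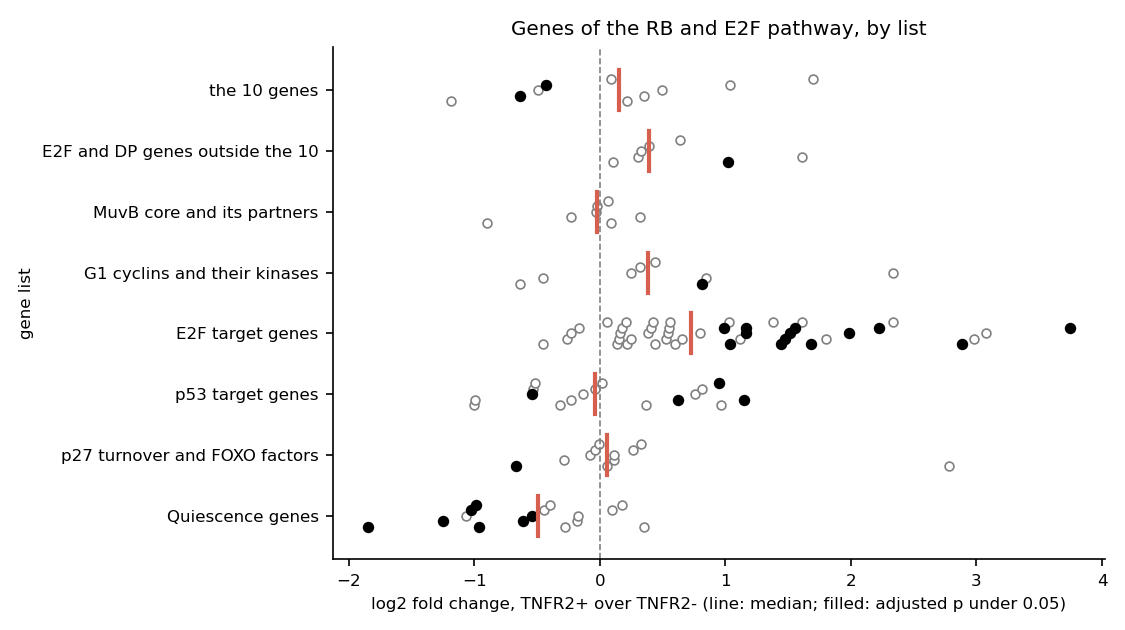
Log2 fold change (x axis) of each tested gene in each pathway list, with points for genes (filled where the adjusted p was under 0.05) and a line for the list's median. The E2F target genes lie mostly above 0, with a median of 0.72, and the quiescence genes mostly below 0, with a median of -0.49.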

How the data were processed

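Libraries were made with a stranded total RNA kit from sorted TNFR2+ and TNFR2- Tregs (4 each) and sequenced on an Illumina instrument. Per the submitters' processing notes and methods, the authors checked reads with FastQC 0.11.8, trimmed them, quantified transcripts with Salmon 1.3.0 on the Ensembl GRCm38 transcriptome, and normalized with DESeq2 1.28 in R 4.0. The deposited values are a normalized signal per gene (normalized counts), not raw counts. The step from transcripts to genes is not given in the sources used here. The study fitted a count model, which these values do not allow, so limma 3.58.1 (R 4.3.3) with an intensity trend was fitted to log2(normalized count + 1), with fold changes on that scale. Genes needed a mean of at least 10 over 8 libraries, and Benjamini-Hochberg adjustment ran over all 13990 genes at a threshold of 0.05. Fold changes are TNFR2+ over TNFR2-.

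Single values and pair ratios were tested with exact two-sided permutation over all 70 relabellings (smallest p 0.0286). Whole steps were sought only in genes of 1 transcript, and read counts were not rebuilt. In 2806 genes with a single transcript of more than 1500 bases, low values lay within 0.1 of whole steps in 69.1% to 96.2% of cases. The step was the best of many tried in each library, so 20%, the chance level of 1 fixed step, is not that of these values. The steps gave the estimated depths, which limit the precision of low genes. Symbols and coordinates came from the GENCODE annotation of GRCm38 (20008 of 20172 identifiers matched), and promoter windows from RefSeq.

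The 10 genes and the lists were chosen with earlier results of these data known. Genes named were the 10, the 3 tested genes with the smallest p in each list, those called against a list's main direction, the 2 genes most like each called gene, and *Tnfrsf1b* and *Mki67*. The lists share a few genes (among them *Btg2*, *E2f7* and *Skp2*). The fit was tested on simulated data. The planted changes were larger than those of *Cdkn1b* and *Rb1*, so this does not show how well changes of their size are found. Alternatives were other pseudocounts, mean filters, scalings and weights, no intensity trend, a replicate block, another gene length, and leaving out each library.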

Additional observations from a re-analysis of the deposited data

How the results depend on the processing

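The direction of every member's log2 fold change was kept in all fits with all libraries. The call of *Cdkn1b* was lost with no filter on the mean (-0.43, limma adjusted p = 0.0603), no intensity trend (-0.43, 0.149), TMM rescaling (-0.42, 0.0551), quantile normalization (-0.33, 0.101), rescaling to the protein-coding sum (-0.36, 0.0694) and the replicate block (-0.43, 0.0542). That of *Rb1* was lost with no intensity trend (-0.63, 0.0842). Members called were thus 1 of 10 with no filter, TMM, quantile, protein-coding rescaling or the replicate block, and 0 with no trend (465 genes called in all). Leaving out 1 library each gave 0 to 2 members and 636 to 1324 genes, with log2 fold changes of -0.48 to -0.35 for *Cdkn1b*, -0.73 to -0.58 for *Rb1*, -1.46 to -0.89 for *Cdkn2d* and 1.302 to 2.09 for *E2f8*. *E2f8* was not tested at a mean of at least 50.

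No pairing by replicate number was seen: deviations of same-numbered libraries correlated at -0.04 to 0.00, other pairs at -0.10 to 0.08, and 0 of 4 correlated best with their own number. Deviations from the mean of so few libraries cannot show whether same-numbered libraries shared a mouse or a sort. With the replicate block 1183 genes were called, and the sign-flip test of the pair ratios cannot go below 0.125. E2F targets called higher fell to 7 with no trend. The causes were not tested. No scaling moved the median of all genes beyond -0.04 to 0.06. With total exonic length, 15 of 40 levels and shares moved by more than 1 SD. Depth limits low genes most.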

Other observations

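*Cdkn2a*, which encodes p16 and ARF, was under the mean filter and entered no comparison. It was listed at 14.3, 4.06, 3.61 and 0 normalized counts in TNFR2+ replicates 1 to 4 and at 0 in all 4 TNFR2- libraries. The other CDK inhibitor genes under the filter were *Cdkn2b* and *Cdkn3*. *Cdkn2b* had 13.8 ± 12.4 normalized counts in TNFR2+ and 3.36 ± 5.32 in TNFR2- libraries, and *Cdkn3* had 6.16 ± 7.80 and 8.06 ± 11.9. The values of 4 genes counted in the lists above follow, all chosen after their values were seen. *E2f3*, the remaining activator E2F, had a wide spread, with 14.6, 96.1, 229 and 70.8 normalized counts in TNFR2+ replicates 1 to 4 and 212, 32.5, 21.3 and 66.1 in TNFR2- replicates 1 to 4 (log2 fold change 0.31, limma adjusted p = 0.861). *E2f4*, the E2F of resting cells, had 812 ± 120.3 and 647 ± 95.5 (0.33, adjusted p = 0.261). *Skp2*, the ubiquitin ligase subunit that targets p27, had 41.3 ± 20.7 and 36.7 ± 8.53 (0.06, adjusted p = 0.961), and *Mdm2*, the p53 ubiquitin ligase, had 1355 ± 134 and 1338 ± 111 (0.02, adjusted p = 0.960).

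For 8 of the 10 genes (all but *Rbl1* and *E2f8*) the coefficient of variation was larger among TNFR2- than among TNFR2+ libraries, against 58.9% of all genes tested. Without TNFR2- replicate 3, which stood apart (a setting chosen after seeing the data), it was larger for 8 of the 10 and for 51.5% of all genes. The difference in spread was not tested.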
